A study of Schizosaccharomyces pombe with 4 samples.

Results

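The 18S rRNA sense cDNAs are the cDNAs that lie on the rRNA strand of the 3 complete ribosomal DNA (rDNA) units of chromosome III and whose middle falls less than 1900 bases after the first base of 18S. They numbered 4728 of the 61252 distinct cDNAs in 4 CRAC libraries of fission yeast (Schizosaccharomyces pombe), and no measured level or fold change was used to choose them. In CRAC, UV light cross-links proteins to RNA in growing cells, after which the protein of interest is purified by its tag and the attached RNA is reverse transcribed and sequenced. The protein was Mkt1, a post-transcriptional regulator, carrying an HTP tag (a histidine stretch, a protease site and protein A parts). The study reports that RNAi-mediated post-transcriptional silencing needs Mkt1, as does efficient establishment of pericentromeric heterochromatin. Existing pericentromeric heterochromatin was kept without it as long as transcriptional silencing was intact. A parental strain without a tag gave the background of the purification.

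Both strains were h+ with the ade6-210 allele, leu1-32, ura4D18 and an ade6+ reporter placed at otr1R(Sph1), and the tagged strain differed by mkt1-HTP-KanR at the mkt1 locus. Cells grew exponentially at 32 °C in PMG medium lacking tryptophan and were irradiated for 42.5 s. Each group had 2 libraries, which the study calls biological replicates. The untagged strain shows what the beads recover without the tagged protein, and each strain is a single genotype without a second clone in the labels.

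18S rRNA is the RNA of the small ribosomal subunit, where it binds messenger RNA and holds the decoding centre. It is transcribed by RNA polymerase I in a precursor that also holds the 5.8S and 28S rRNAs of the large subunit and is cut and modified into the mature RNAs. Because rRNA is the most abundant RNA of a growing cell, it is a common background in purifications of RNA-binding proteins. In CRAC a base missing from a cDNA can mark the place where reverse transcriptase met a cross-linked nucleotide.

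The 3 annotated 18S genes were 1842 nt long and identical in sequence, as was the whole window of 1900 bases. In the ASM294v2 assembly they lay at chrIII:10419-12260 and chrIII:21289-23130 on the minus strand and at chrIII:2440994-2442835 on the plus strand. All positions below count from 1 at the first base of 18S, and the cDNAs of the 3 copies were laid over each other. In the unit of 6204 bases, 5.8S covered 2255 to 2419 and 28S covered 2720 to 6204. A further 2 truncated 18S copies at the chromosome ends carry the first 1390 and 1001 bases. They lie outside the 3 units, so a cDNA from the first part of 18S could also be placed there.

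The 18S stretches on which the coverage and the deletions turned are given below as the DNA of the plus sense of 18S, 5′ to 3′, from the RefSeq sequence of chromosome III (ASM294v2). Capitals mark bases missing from 10 or more cDNAs over the 4 libraries. The first holds the highest covered base of Mkt1-HTP replicate 1. The second holds that of Mkt1-HTP replicate 2 and most of the long deletions, and the next one was deleted mainly in 1 control library. The fourth lies under the highest coverage of the control, and the last one holds 2 deleted bases near the 3′ end.
18S 715 to 744: ctacTcatgttcTTTATTgagcgtggtagg
18S 745 to 774: gaaccaggaCTTTTACCTTGaaaaaattag
18S 822 to 851: ataaaataggacGTgTGGttctattttgtt
18S 1366 to 1395: gctggatcagccATTTTGgctgatcATTAg
18S 1740 to 1769: gcaacggcggaaacATtgccgagaagttgg

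In the first gene copy, on the minus strand, these stretches lay at chrIII:11517-11546, chrIII:11487-11516, chrIII:11410-11439, chrIII:10866-10895 and chrIII:10492-10521, all in the exon of an rRNA gene.

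Mkt1-HTP replicate 1 gave 1394 sense cDNAs of 18S among 24468 distinct cDNAs, and replicate 2 gave 2653 among 26899. Control replicate 1 gave 54 among 1743, and control replicate 2 gave 627 among 8142. Control replicate 1 was thus the shallowest by far. A distinct cDNA differs from every other in its ends, its deletions or its rDNA copy, apart from a few exact repeats. Equal molecules are therefore mostly counted once per copy, and abundant fragments are undercounted. All Wilson intervals, at 95%, and Fisher's tests cover counting error only, and a count of 0 allows a share of up to 3 counts of the total. They take rows as independent, although each pair of ends of 18S cDNAs held 1.54 to 1.88 rows on average.

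18S took a larger share of the rRNA recovered with Mkt1-HTP than of that recovered from the control. Of all sense rDNA cDNAs, 18S made up 18.8% and 24.4% in Mkt1-HTP, compared with 3.81% and 9.49% in the control. The groups did not overlap, and averaged 21.6% ± 3.97 against 6.65% ± 4.01 (SD, n = 2). The shares also rose in the order of the distinct cDNAs of the libraries, which were 1743, 8142, 24468 and 26899. The group and the depth thus went together, and the part of depth was not tested. Within replicate number 1 the Mkt1-HTP share was 4.94 times the control share, and within number 2 it was 2.58 times. An exact permutation test of 2 libraries against 2 cannot go below p = 0.33, two-sided, and that is the value it gave here. Each replicate number shared a sequencing index between the groups, so these within-number ratios are also ratios within an index.

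As a share of the whole library, 18S was much closer between the groups. It was 5.70% (5.41 to 5.99) and 9.86% (9.51 to 10.2) in Mkt1-HTP, compared with 3.10% (2.38 to 4.02) and 7.70% (7.14 to 8.30) in the control. Control replicate 2 lay above Mkt1-HTP replicate 1, so the groups overlapped. On average it was 7.78% ± 2.95 with the tag and 5.40% ± 3.25 without (SD, n = 2, exact permutation p = 0.667, two-sided). Within the replicate numbers Mkt1-HTP was higher by 1.84 and 1.28 times.

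The RNA of the large subunit went the other way. 28S gave 5573 and 7783 cDNAs with the tag, 22.8% and 28.9% of the library, against 1331 and 5591 without it, 76.4% and 68.7%. For each 100 cDNAs of 28S there were 25.0 and 34.1 of 18S in Mkt1-HTP, compared with 4.06 and 11.2 in the control. These averaged 29.6 ± 6.42 and 7.64 ± 5.06 (SD, n = 2), a ratio of 3.87, with no overlap (exact permutation p = 0.33). Both ratios compare shares of recovered cDNA, and the larger part of 28S in the control moves with them. The number of 18S per 28S cDNA also rose in the order of the distinct cDNAs of the libraries, and the part of depth was not tested. The remaining rRNA was thin. 5.8S gave 430, 402, 32 and 389 cDNAs in the order Mkt1-HTP 1 and 2 and control 1 and 2, and sense spacer between the 18S window and 28S gave 8, 16, 0 and 1. 5S gave 291, 117, 0 and 162, and the strand opposite to the rRNAs gave 258, 549, 0 and 8.

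**Figure D1:**
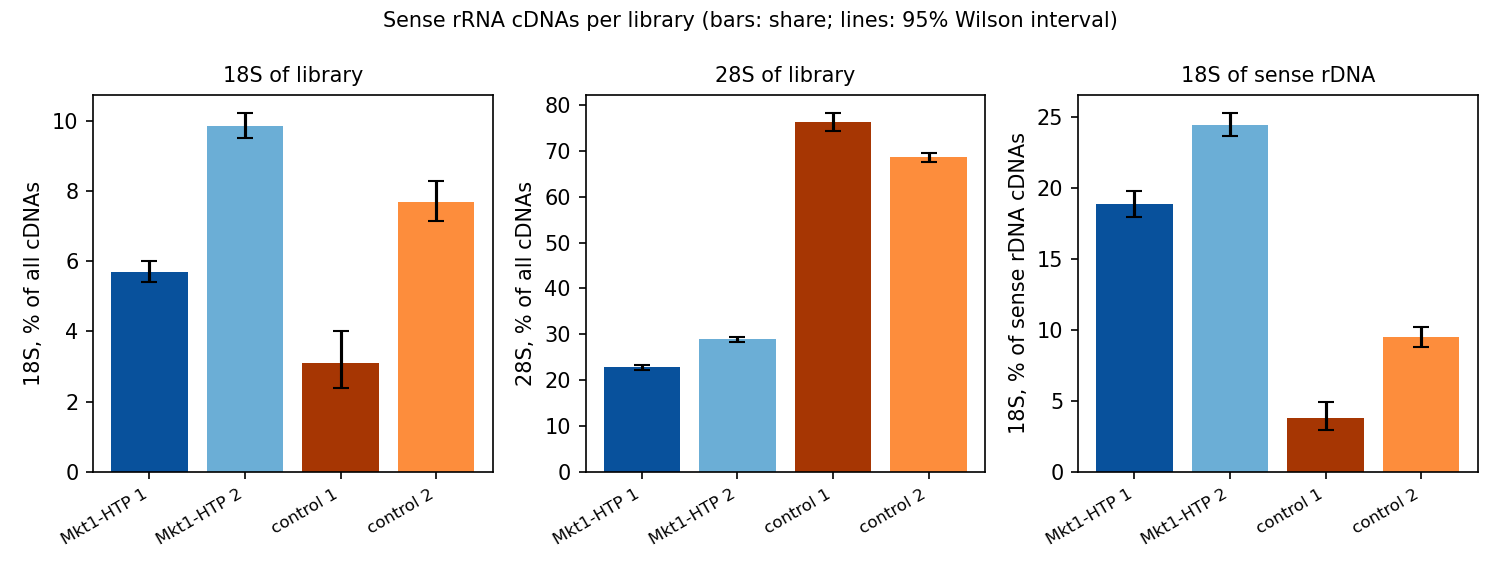
Shares of sense 18S and 28S cDNAs in each library, in percent of all distinct cDNAs (left and middle) and of all sense rDNA cDNAs (right); bars are shares and lines are 95% Wilson intervals. The 18S share of the library overlaps between the groups, whereas both Mkt1-HTP libraries exceed both controls as a share of sense rDNA, at 18.8% and 24.4% against 3.81% and 9.49%.

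The 18S cDNAs were spread evenly over the 3 identical copies. Mkt1-HTP replicate 1 had 462, 445 and 487 in the copies in order of chromosome position, replicate 2 had 880, 854 and 919, control replicate 1 had 16, 19 and 19, and control replicate 2 had 196, 229 and 202. Taken over the 3 copies, they had 789 and 1448 different pairs of ends in Mkt1-HTP, against 35 and 334 without the tag, or 56.6%, 54.6%, 64.8% and 53.3% of the cDNAs. The proportion of repeated ends was thus similar in the 3 deeper libraries. Nearly all cDNAs lay inside mature 18S. Only 1 cDNA of Mkt1-HTP replicate 1 and 1 of control replicate 2 ran across the 3′ end of the gene, and 0, 6, 0 and 3 lay wholly after it. Some began before the first base, namely 6 in Mkt1-HTP replicate 1 and 9 in control replicate 2. The median length was 60 and 58 nt in Mkt1-HTP and 56 and 61 nt in the control, which overlapped.

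Part of the control 18S cDNAs had the same ends as a cDNA of the tagged library with the same number, 16 of 54 (29.6%) in replicate 1 and 95 of 627 (15.2%) in replicate 2. With the tagged library of the other number they shared 15 (27.8%) and 73 (11.6%).

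Over the complete copies, coverage of 18S peaked before the middle in Mkt1-HTP and farther toward the 3′ end in the control. The highest covered base was 725 in Mkt1-HTP replicate 1, 749 in replicate 2, 1377, the first base of a plateau, in control replicate 1 and 1381 in control replicate 2. The first 2 of these lie in or beside the stretch 715 to 744 printed above, and the last pair lies in 1366 to 1395. Base 749 was covered by 18.7% and 20.4% of the 18S cDNAs in Mkt1-HTP and by 1.85% (0.328 to 9.77) and 3.99% (2.72 to 5.82) in the control. Base 725 was covered by 22.5% and 18.5% in Mkt1-HTP against 14.8% (7.70 to 26.6) and 7.50% (5.68 to 9.83). Both Mkt1-HTP libraries were higher at these bases, which were chosen for their height in Mkt1-HTP. At base 1381, chosen for its height in the control, Mkt1-HTP had 16.6% and 14.2% and the control had 24.1% (14.6 to 36.9) and 22.3% (19.2 to 25.8). Base 1377 was covered by 12.0% and 13.0% in Mkt1-HTP and by 24.1% and 18.02% in the control. Bases 725 and 1381 were thus covered in all 4 libraries, in different proportion. Of the 1842 bases, 52 and 71 were covered by no cDNA in Mkt1-HTP, compared with 1180 and 215 in the control.

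**Figure D2:**
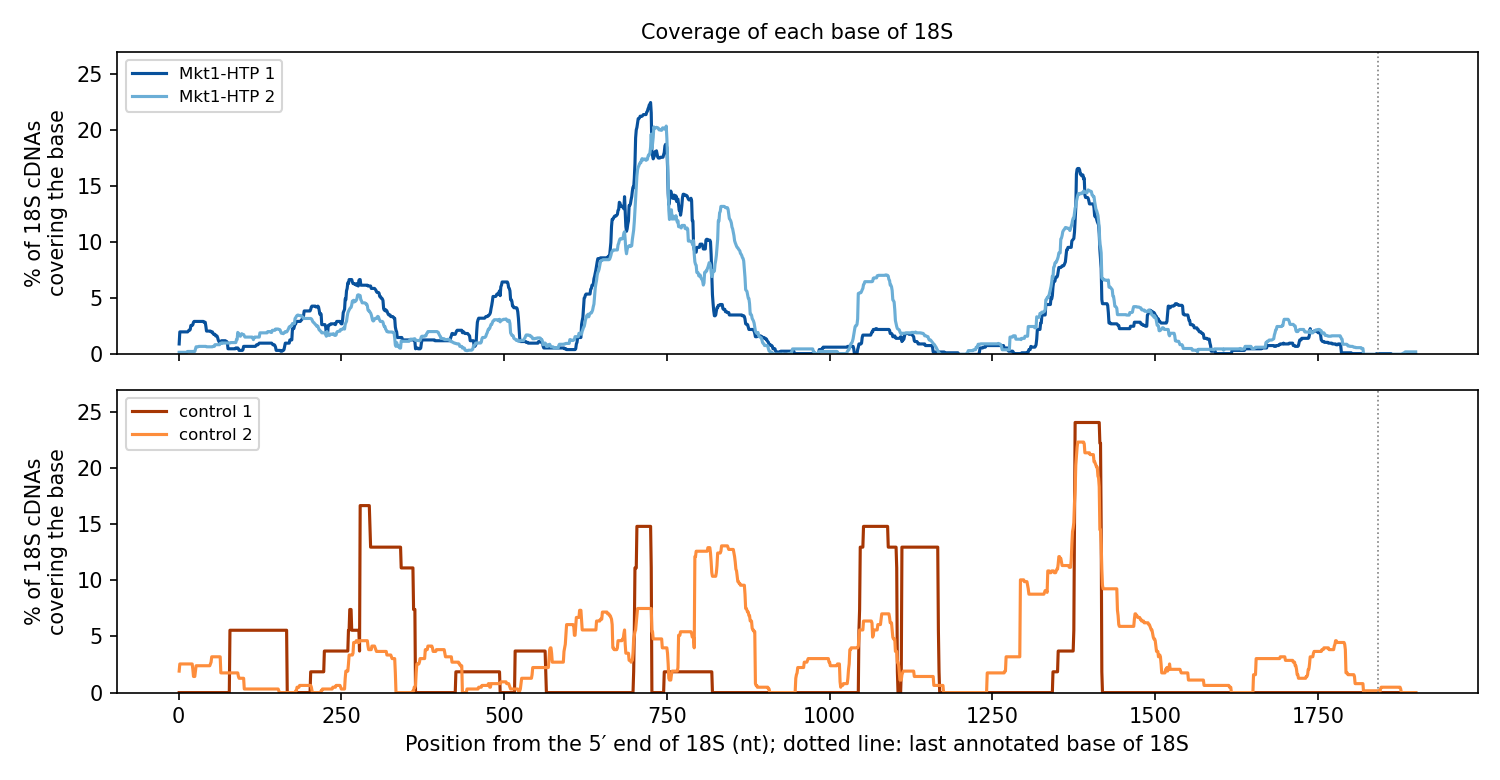
Share of each library's 18S cDNAs that cover each base of 18S, in percent, against position from the 5′ end in nt; the upper panel holds the Mkt1-HTP libraries and the lower one the untagged controls. The Mkt1-HTP lines are highest at bases 725 and 749 and the control lines at 1377 and 1381, and the stepped line of control replicate 1 rests on 54 cDNAs.

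Placed in bins of 100 nt by their middle, 18S cDNAs of Mkt1-HTP were most frequent in 701 to 800. That bin held 405 and 675 of them in Mkt1-HTP, 29.1% and 25.4%, and 9 and 71 in the control, 16.7% (9.02 to 28.7) and 11.3% (9.08 to 14.0). Both Mkt1-HTP libraries were higher, with means of 27.2% ± 2.55 and 14.0% ± 3.78 (SD, n = 2), although the interval of control replicate 1 reached into the range of Mkt1-HTP.

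The bin before it, 601 to 700, held 164 and 269 cDNAs in Mkt1-HTP, 11.8% and 10.1%, and 0 and 45 in the control, 0% (0 to 6.64) and 7.18% (5.41 to 9.47). The 0 of control replicate 1 allows a share of up to 5.56%. The next bin, 801 to 900, did not separate the groups, at 4.30% and 13.1% in Mkt1-HTP, compared with 0% and 13.1% in the control. The 3 bins from 601 to 900, joined after the values were seen, held 45.1% and 48.7% of the 18S cDNAs in Mkt1-HTP and 16.7% (9.02 to 28.7) and 31.6% (28.1 to 35.3) in the control.

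The control was most frequent in 1301 to 1400. That bin held 13 and 120 cDNAs in the control, 24.1% (14.6 to 36.9) and 19.1% (16.3 to 22.4), and 194 and 297 in Mkt1-HTP, 13.9% and 11.2%. Both controls were higher, with means of 21.6% ± 3.49 against 12.6% ± 1.92 (SD, n = 2). The bin 1001 to 1100 held 14.8% and 7.34% in the control and 2.94% and 6.14% in Mkt1-HTP. The intervals of the libraries with number 2 overlapped there.

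Over the 19 bins of 18S, both Mkt1-HTP libraries lay above both controls in 3 (401 to 500, 601 to 700 and 701 to 800) and below both in 5 (301 to 400, 501 to 600, 1001 to 1100, 1101 to 1200 and 1301 to 1400), and the groups overlapped in 11. On the same scale, cDNAs per 18S cDNA, 10.7% of the 56 sense rDNA bins lay above and 25% below. For the 18S bins alone it was 15.8% and 26.3%. The 56 bins include the 19 bins of 18S. The other bins were also scaled to 18S cDNAs, whose share of the sense rDNA differed between the groups. The 56 bins are therefore not a separate background for the 18S bins. Control replicate 1 had no cDNA in 10 of the 19 bins. Per cDNA of the library, 4 of the 19 bins lay above both controls and 2 below, against 51.8% and 2.62% of 535 windows over the whole genome. Of those windows, 306 passed the minimum count through Mkt1-HTP alone, without a control cDNA, whereas all 18S bins had control cDNAs. The 51.8% is therefore not a background for the 18S bins.

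**Figure D3:**
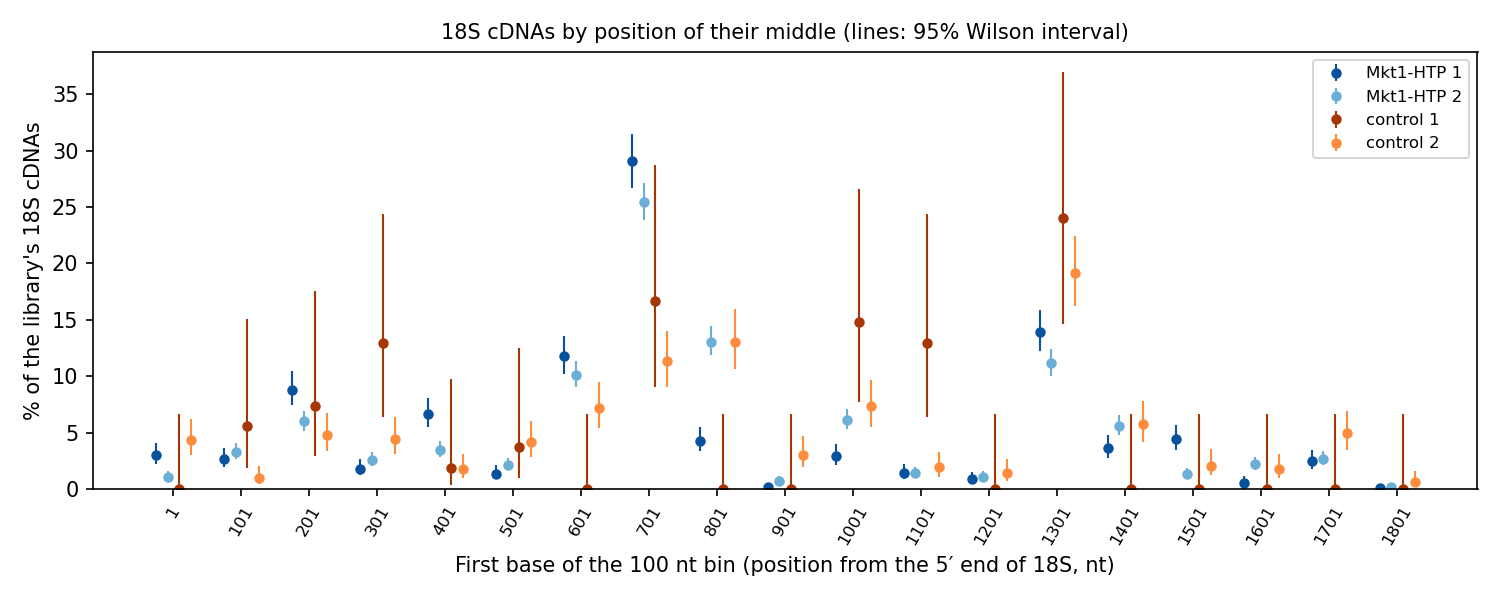
Share of each library's 18S cDNAs in bins of 100 nt, in percent, by the position of the cDNA's middle; points are libraries and lines are 95% Wilson intervals. Bin 701 to 800 is the highest bin of both Mkt1-HTP libraries (29.1% and 25.4%) and bin 1301 to 1400 that of both controls (24.1% and 19.1%).

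No bin of 18S passed a test that takes the spread between replicates into account. Against all cDNAs of the library, edgeR's quasi-likelihood test called 0 of 19 bins at an adjusted p of 0.05. Of all 535 windows it called 2.06% higher and 1.31% lower in Mkt1-HTP. None of the 19 bins had an unadjusted p under 0.05 either, and DESeq2 called 0. On simulated windows at a dispersion of 0.9, near the fitted 0.921, edgeR called 0 of 88 at 64-fold. The lack of calls therefore does not show equal levels. The smallest adjusted p of edgeR was that of 701 to 800, with a log2 fold change of 1.56 ± 0.94 (SE, adjusted p = 0.400). For 601 to 700 it was 1.43 ± 1.11 (adjusted p = 0.507), for 1001 to 1100 it was -0.41 ± 1.14 (adjusted p = 0.809), and for 1301 to 1400 it was -0.24 ± 0.97 (adjusted p = 0.880). The value of 601 to 700 rested on the control libraries, at 0.60 without control replicate 1 and 10.2 without control replicate 2, which leaves no control cDNA in the bin.

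The median fitted log2 fold change was 0.10 over the 18S bins and 4.70 over all 535 windows. Of those windows, 306 had no control cDNA, whereas all 18S bins had one. With counts pooled within each group and windows without control cDNA set at 3 counts over the group, the medians of the log2 ratio were -0.19 over the 18S bins and -0.16 over all windows. The set value of 3 counts entered 57.2% of all windows and none of the 18S bins, so these medians cannot be compared.

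Against the 18S cDNAs of the library, which asks for a change of profile rather than of amount, edgeR again called 0 of 19 bins. It called 0% of the 56 sense rDNA bins in either direction. No bin of 18S reached an unadjusted p under 0.05, and DESeq2 called 0. The log2 fold change was 0.99 ± 1.01 for 701 to 800 and 1.28 ± 1.20 for 601 to 700 (both adjusted p = 0.735), and -1.21 ± 1.24 for 1001 to 1100 (adjusted p = 0.735) and -0.77 ± 1.00 for 1301 to 1400 (adjusted p = 0.761). For 601 to 700 it was 0.61 without control replicate 1 and, again with no control cDNA left, 10.2 without control replicate 2. Standard errors over the 19 bins ran from 1.00 to 1.99 on the log2 scale. With the truncated copies included, the log2 fold change was 1.04 for 701 to 800 and -0.85 for 1301 to 1400, without a call.

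**Figure D4:**
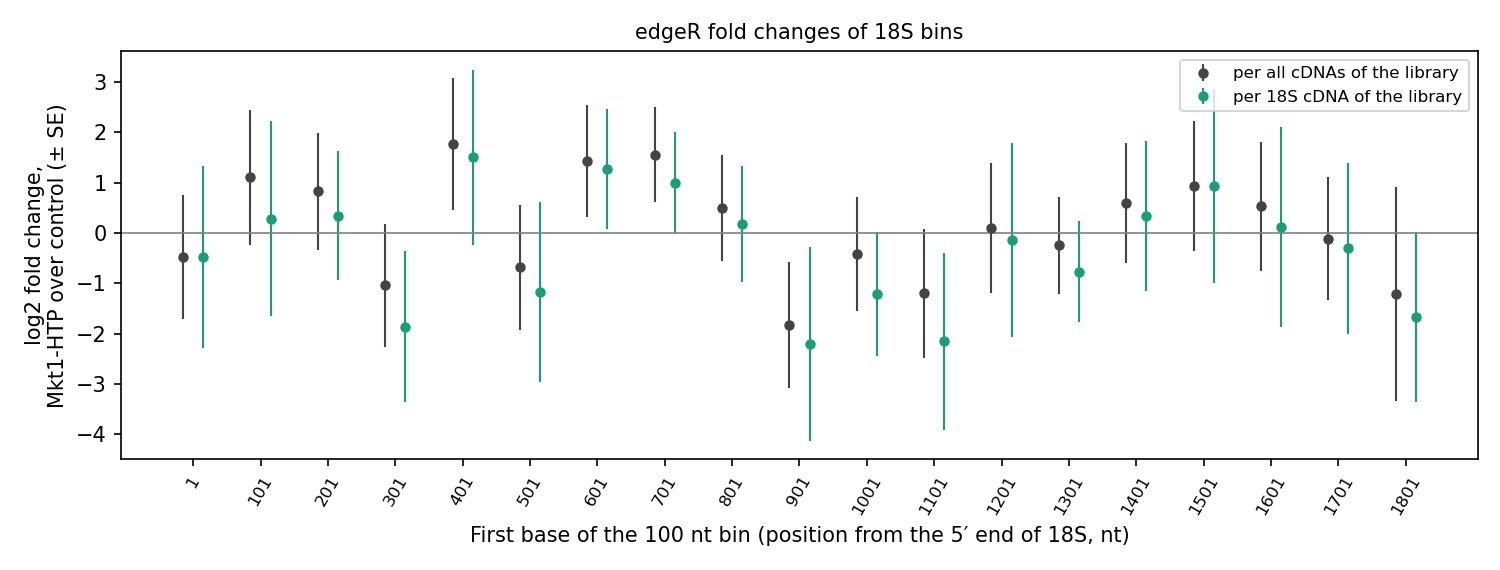
Log2 fold change of Mkt1-HTP over the untagged control for each bin of 100 nt along 18S, fitted with edgeR against all cDNAs of the library (grey) or against its 18S cDNAs (green); lines are ± 1 SE. The values run from -2.20 to 1.77 and no bin passed an adjusted p of 0.05 on either scale.

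The profiles of the libraries were set against each other as the share of 18S cDNAs that would have to move to another bin to make them equal. It was 19.0% between the Mkt1-HTP replicates and 44.6% between the control replicates. Between the groups it ran from 22.9%, for the libraries with number 2, to 50.0%, for those with number 1. The largest distances all involved control replicate 1. With rows taken as independent, the chi-square per degree of freedom between replicates was 12.4 in Mkt1-HTP and 3.70 in the control over the 19 bins. Rows with the same ends are not independent and can raise these values. None of the replicates was a copy of another.

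The ends of the cDNAs showed the same places. The 3′ end at 1417 was among the 4 most frequent in every library, with 39, 59, 7 and 14 cDNAs in the order Mkt1-HTP 1 and 2 and control 1 and 2. The 3′ end at 726 had 59, 44, 6 and 13. The 3′ ends at 751 and 752 had 35 and 15 cDNAs in replicate 1 and 61 and 67 in replicate 2, against 0 and 0 in control replicate 1 and 6 and 8 in control replicate 2. As shares of the 18S cDNAs, the end at 751 was 2.51% and 2.3% in Mkt1-HTP, compared with 0% (up to 5.56%) and 0.957% in the control, so the limit of control replicate 1 lay above both Mkt1-HTP shares. The end at 752 was 1.08% and 2.53% against 0% and 1.28%, and the groups overlapped. Some 5′ ends belonged to single libraries. The 5′ end at 1044 had 60 cDNAs in Mkt1-HTP replicate 2 and 3, 0 and 1 in the others. The 5′ end at 793 had 51 cDNAs in control replicate 2, 1 in each Mkt1-HTP library and 0 in control replicate 1, and that at 1293 had 43 in control replicate 2 and 0 in the others.

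Deletions in 18S cDNAs followed the replicate number more than the group. A deletion was present in 171 of 1394 cDNAs, 12.3% (10.6 to 14.1), of Mkt1-HTP replicate 1 and in 607 of 2653, 22.9% (21.3 to 24.5), of replicate 2. In the control it was present in 3 of 54, 5.56% (1.91 to 15.1), and in 201 of 627, 32.1% (28.5 to 35.8). The groups overlapped, and the difference had opposite signs in the 2 pairs. Within number 1 Mkt1-HTP was 6.71 percentage points higher (Fisher's exact p = 0.2, two-sided), and within number 2 the share fell by 9.18 points (Fisher's exact p = 2.6e-06). Since equal cDNAs are merged, these are shares of distinct cDNAs and not of molecules.

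The same order by number appeared outside 18S. In 28S the shares were 15.1% and 31.7% with the tag against 14.3% and 30.2% without it. Outside the rDNA units they were 12.5% and 23.5% against 6.44% and 21.0%. In both, the libraries with number 2 had the higher share. The part of the sequencing index in the 18S values was not tested.

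Most 18S deletions removed 1 base. Single bases were 83.6% of 183 deletions in Mkt1-HTP replicate 1, 54.6% of 645 in replicate 2, 75% of 4 in control replicate 1 and 52.2% of 228 in control replicate 2. Among single deleted bases, U made up 65.4% and 81.0% in Mkt1-HTP and 69.7% in control replicate 2, against 29.9%, 29.8% and 29.9% of the covered bases. In control replicate 1, 0 of 3 single deleted bases were U. The excess of U was thus seen with and without the tag.

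In Mkt1-HTP, long deletions gathered in 1 place. There were 22 and 48 deletions of 5 or more bases in the Mkt1-HTP libraries, against 0 and 9. Of these, 21 and 40 in Mkt1-HTP and 1 in control replicate 2 overlapped bases 754 to 764, the capitals of the stretch 745 to 774. Among cDNAs that covered all of 754 to 764, a deletion there was present in 21 of 167, 12.6% (8.37 to 18.5), and 42 of 245, 17.1% (12.9 to 22.4), in Mkt1-HTP. In the control only 1 and 7 cDNAs covered it, with 0 and 1 deleted, too few to compare. The deleted cDNAs of Mkt1-HTP had 5 and 19 different pairs of ends. At the single bases 760 and 761, both C, the log2 fold change per covering cDNA was 0.62 ± 1.96 and 0.61 ± 1.97 (edgeR, SE, adjusted p = 0.906 for each).

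Over the 4 libraries, 261 bases of the window were deleted in at least 1 cDNA and 49 in 10 or more. None of the 49 was deleted in control replicate 1, and 20 were not covered there at all, which left 29 to test per covering cDNA. edgeR called 2 of the 29 lower and 0 higher in Mkt1-HTP, with 4 at an unadjusted p under 0.05. Of the 139 sense rDNA bases tested, 1.44% were called lower, which are these same 2 bases, and 0% higher.

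Both called bases were U, at 1392 and 1393, beside the control summit of coverage. Base 1392 was deleted in 0 of 198 and 0 of 383 covering cDNAs in Mkt1-HTP and in 0 of 13 and 21 of 134 in the control. All deletions thus came from control replicate 2, and control replicate 1, at 0, overlapped with Mkt1-HTP. The fitted log2 fold changes were -7.21 ± 1.93 and -7.20 ± 1.93 (edgeR, SE, adjusted p = 0.0161), values that depend on how 0 is treated. Over bases 1391 to 1394, pooled within groups, 21 of 147 control cDNAs (14.3%) and 0 of 576 of Mkt1-HTP had a deletion. The pooled control value rests on control replicate 2, with 21 of 134, since control replicate 1 had 0 of 13. It therefore gives no lower limit for a difference between the groups. The deleted cDNAs of control replicate 2 had 15 different pairs of ends. The call was lost without either Mkt1-HTP library (adjusted p = 0.432 and 0.729 in edgeR), and without control replicate 2 no deletion is left at these bases. It was also lost when deletions were scaled to the 18S cDNAs of each library (adjusted p = 0.0643) and when the truncated copies were included (adjusted p = 0.224).

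The same stretch holds an inverted repeat. The 9 bases 1370 to 1378 and the 9 bases 1382 to 1390 are reverse complements with 3 bases between them, and the called bases follow the second arm with base 1391 between. Base 1382, the first of the second arm and the last of a run of U that begins between the arms, was deleted in 10 of 231, 4.33% (2.37 to 7.78), and 80 of 380, 21.1% (17.3 to 25.4), in Mkt1-HTP and in 0 of 13 and 12 of 140, 8.57% (4.97 to 14.4), in the control. The groups overlapped there, with a log2 fold change of 1.05 ± 1.12 (edgeR, SE, adjusted p = 0.704). Blocking on the replicate number in edgeR gave 1.32 with adjusted p = 0.0174. That fit called 5.04% of the 139 sense rDNA bases higher and 3.6% lower, and of the 29 in 18S it called 1 higher and 2 lower. Over bases 1378 to 1383 a deletion was present in 14 of 182 and 120 of 348 in Mkt1-HTP and in 0 of 13 and 15 of 127 in the control. In each Mkt1-HTP library and in control replicate 2 these bases were deleted, whereas 1391 to 1394 were deleted in the last only.

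Base 729, a U under the summit of Mkt1-HTP coverage, was deleted in 18 of 243, 7.41% (4.74 to 11.4), and 75 of 513, 14.6% (11.8 to 17.9), in Mkt1-HTP and in 4 of 30, 13.3% (5.31 to 29.7), in control replicate 2. Control replicate 1 did not cover it, so no test was made. Over bases 727 to 732 a deletion was present in 28 of 237, 11.8% (8.30 to 16.5), and 176 of 478, 36.8% (32.6 to 41.2), in Mkt1-HTP, from 16 and 78 different pairs of ends. Control replicate 2 had 6 of 28, 21.4% (10.2 to 39.5), from 2 pairs of ends. Its value lay between those of the Mkt1-HTP libraries.

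Bases 837 and 838 were the most deleted per 18S cDNA on average, through 1 library. Each was missing from 41 of 82 covering cDNAs in control replicate 2, 50.0% (39.4 to 60.6), and from 0 of 56 and 0 of 350 in Mkt1-HTP, and control replicate 1 did not cover them. Over bases 834 to 839 it was 50 of 82 against 0 of 56 and 8 of 345. The deleted cDNAs were not independent in their ends. Of the 50, 29 had their ends at 793 and 885, and all 29 cDNAs with these ends were deleted there. No other library held a cDNA with these ends. Scaled to the 18S cDNAs of each library in place of the covering cDNAs, edgeR gave a log2 fold change of -8.52 with adjusted p = 0.0486, again with every deletion from 1 library. These were the 2 bases called lower under that scaling, 1.24% of the 161 sense rDNA bases tested.

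Other deleted stretches also differed between replicates. Bases 1754 and 1755 were deleted in 15 of 23 covering cDNAs in control replicate 2, 65.2% (44.9 to 81.2), and in 0 of 18 and 9 of 55, 16.4% (8.86 to 28.3), in Mkt1-HTP. Bases 382 and 383 were deleted in 20 of 24 in control replicate 2, and in 0 of 18 and 16 of 51 in Mkt1-HTP. Bases 190 to 195 were deleted in 7 of 44, 15.9% (7.93 to 29.4), and 55 of 84, 65.5% (54.8 to 74.8), in Mkt1-HTP and in 0 of 4 in control replicate 2. At these 3 stretches the libraries with number 2 held most or all deletions. Base 494 and bases 1074 to 1076 did the opposite within Mkt1-HTP, with 15 of 73 against 0 of 77 for the first and 12 of 31, 38.7% (23.7 to 56.2), against 16 of 186, 8.60% (5.36 to 13.5), for the second. The Mkt1-HTP replicates thus differed from each other by more than their counting intervals at each of these 5 stretches but 1754 to 1755.

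**Figure D5:**
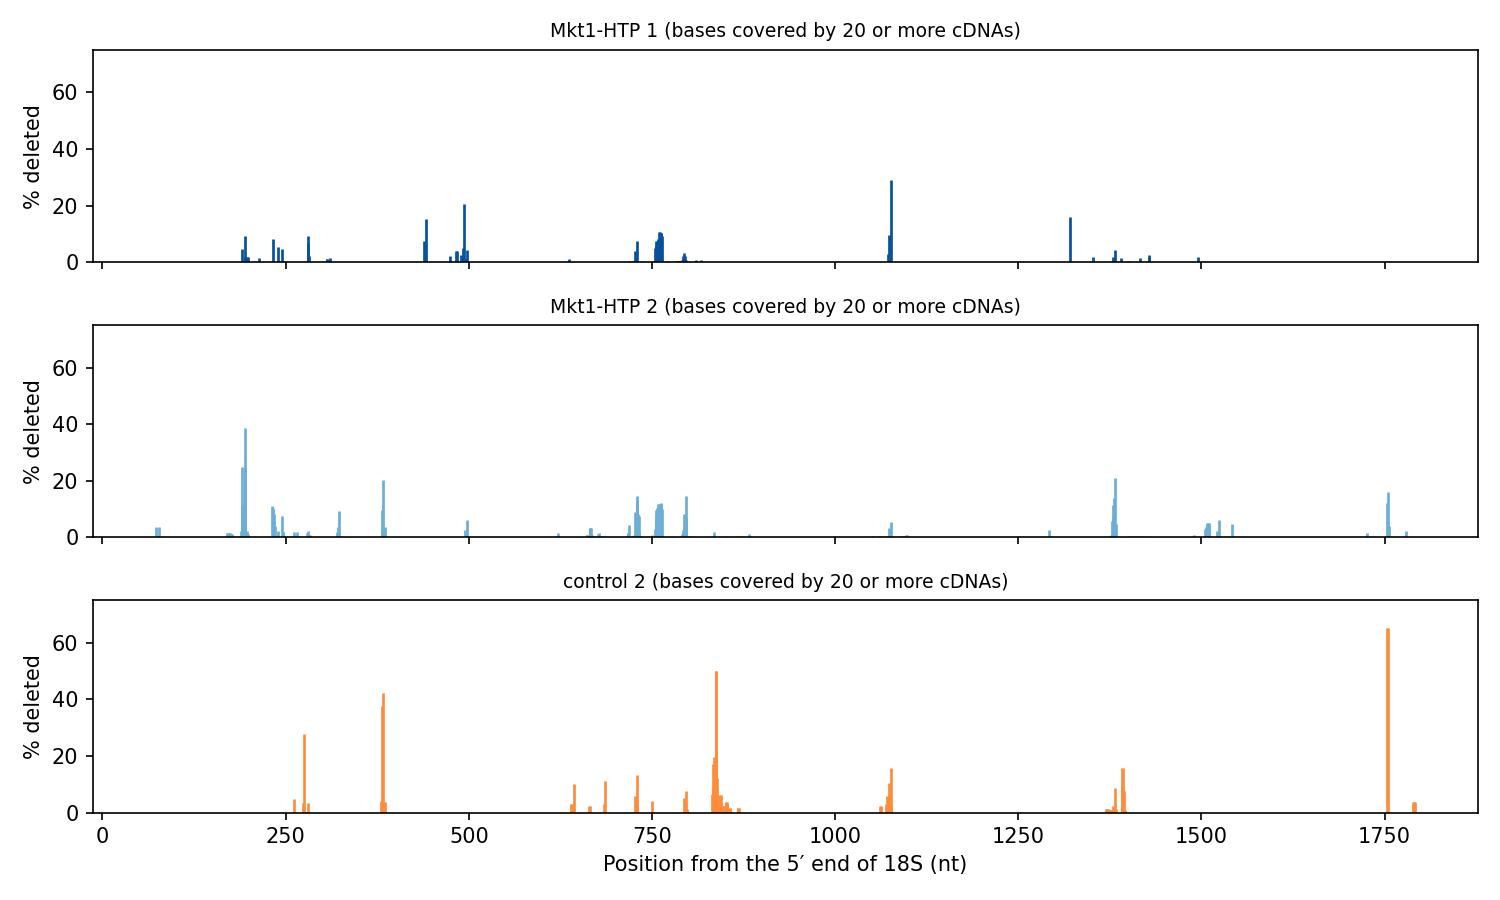
Share of covering 18S cDNAs in which each base was deleted, in percent, against position from the 5′ end of 18S in nt, for both Mkt1-HTP libraries and control replicate 2; only bases covered by 20 or more cDNAs are drawn, and control replicate 1 has none. Bases 837 and 838 reach 50.0% in control replicate 2 with none deleted in Mkt1-HTP, and base 729 is deleted in all 3 libraries.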

How the data were processed

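CRAC libraries of Mkt1-HTP and of untagged cells were grouped by their sample titles, 2 per group. The authors trimmed adapters and collapsed PCR duplicates, filtered tRNA reads out with STAR 2.7.1a and aligned the rest to the ASM294v2 genome with Novoalign 3.09.02. pyReadCounters (Counters 1.4.4) then wrote the distinct cDNAs with their deletions, as its headers and the methods of the paper state. The deposited values are counts, 1 in every row, so a count here is a number of rows. Mapped cDNAs in the headers were 544192 and 483073 (Mkt1-HTP) against 27996 and 135763 (control), and distinct ones in the files 24468, 26899, 1743 and 8142 in that order. How reads that fit several rDNA copies were placed is not given in the sources used here.

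The rDNA units were taken from the RefSeq annotation, whose nuclear chromosomes have the sequence lengths of ASM294v2, and folded onto 1 unit. Windows of 100 nt over the genome (535), sense rDNA bins (56) and deleted bases (139) with 10 or more counts over 4 libraries were tested with edgeR 4.0.16 (R 4.3.3; glmQLFit and glmQLFTest with group as the only term). The two-sided p-values were adjusted by Benjamini-Hochberg over each table, with a threshold of 0.05. Library sizes were all cDNAs or 18S cDNAs, and for deleted bases the offset was the number of covering cDNAs. Spread was pooled over features, so a p-value does not measure the spread of one bin. DESeq2 1.42.0 was an alternative. Shares have Wilson intervals and exact permutation or Fisher's exact tests (scipy 1.17.1, Python 3.11.15).

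Named were the 3 bins with the highest mean share in each group, the 8 bases most deleted per 18S cDNA, bins or bases past the threshold, and the highest covered base of each library. Deleted stretches join bases with 10 or more deletions that lie up to 3 nt apart. These stretches, the cDNA ends and the inverted repeat were chosen after their values were seen, and the members and the other choices were made with earlier results of these data known. Leaving out libraries, counting repeated cDNAs once, other bins, scalings, filters and tools were alternatives. The truncated 18S copies, deletions of 1 base only and the settings of the share of sense rDNA were added after seeing the data.

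On simulated data for the windows, at a dispersion of 0.1, edgeR called 81 of 89 windows made 16-fold higher and 2 of 307 unchanged ones, and at a dispersion of 0.9, near the 0.921 fitted here, 0 of 85 windows at 16-fold and 0 of 88 at 64-fold. For the sense rDNA bins (fitted dispersion 0.526) it called 8 of 9 at 16-fold and 9 of 9 at 64-fold at 0.1. At 0.9 it called 1 of 9 and 6 of 9. For deleted bases (fitted 0.665) it called 17 of 23 and 20 of 23 at 0.1, and 0 of 22 and 0 of 23 at 0.9. Both fitted values lie between the simulated dispersions. The labels show that libraries of the same number shared a sequencing index, which pairs them. They disagree on which 5′ adapter belonged to which Mkt1-HTP library, though the pairs with the control stay the same. Replicate numbers follow the titles. The deviations of paired libraries from their group means correlated at 0.166 over 535 windows (across windows, which are not independent). Blocking on the replicate number lowered the common dispersion of edgeR from 0.665 to 0.079 for deleted bases. For windows it fell from 0.921 to 0.500, and for sense rDNA bins from 0.526 to 0.460. The main fits did not use this pairing.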

Additional observations from a re-analysis of the deposited data

Results flagged for a closer look

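The 2 truncated 18S copies at the ends of chromosome III, which lie outside the counted units, also held sense cDNAs, at a higher share of the library in Mkt1-HTP than in the control. They held 688 cDNAs (2.81%, 2.61 to 3.03) in Mkt1-HTP replicate 1 and 1137 (4.23%, 3.99 to 4.47) in replicate 2. In the control they held 24 (1.38%, 0.927 to 2.04) and 209 (2.57%, 2.25 to 2.93). The intervals of Mkt1-HTP replicate 1 and control replicate 2 overlapped, and the difference was not tested. The copies carry the first 1390 and 1001 bases of 18S, with 1 undetermined base in the first copy and otherwise no base that differs, so their cDNAs cannot be told apart from those of the complete copies.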

How the results depend on the processing

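With 2 libraries per group and 54 18S cDNAs in control replicate 1, depth limits every comparison. No setting called an 18S bin, in 19 alternatives against all cDNAs and 18 against the 18S cDNAs. The 18S share of all cDNAs, 2.38 percentage points higher in Mkt1-HTP, kept its direction but shrank to 0.0792 without control replicate 1, 0.298 without Mkt1-HTP replicate 2, 0.459 with equal ends counted once, 0.637 with equal ends and deletions counted once and 0.805 without shared control cDNAs. The share of sense rDNA, 14.98 points higher, ran from 12.1 to 19.8. The median position, -206 nt (Mkt1-HTP minus control), was -94.6 without control replicate 1, -25.8 without shared control cDNAs and -38 with the truncated copies, and the groups overlapped in the last pair. Signs that turned follow, all as log2 fold changes without a call, and the cause was not tested. With library sizes from outside the rDNA, bins 601 to 700 and 701 to 800 gave -0.27 and -0.15. Bin 1001 to 1100 gave 1.91 without scaling and, for the profile, 0.70 with sense rDNA sizes and 0.33 with TMM. Bin 1301 to 1400 gave 1.88 without scaling, 0.32 by 5′ end and 0.15 by 3′ end, and for the profile 0.15 by 3′ end, 0.95 with sense rDNA sizes and 0.62 with TMM. Leaving out 1 library, bin 1001 to 1100 ran from -1.61 (without Mkt1-HTP replicate 2) to 0.24 (without Mkt1-HTP replicate 1), bin 1301 to 1400 from -0.64 (without control replicate 1) to 0.35 (without control replicate 2), and base 1382 from -0.41 (without Mkt1-HTP replicate 2) to 7.74 (without control replicate 2).

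For deleted bases, the number lower in Mkt1-HTP, 2, became 0 without either Mkt1-HTP library or control replicate 2 and stayed 2 without control replicate 1. It was also 2, but bases 837 and 838 in place of 1392 and 1393, when scaled to the 18S cDNAs. It was 4 by Fisher's test on summed counts, 1 with runs of a base joined, 0 with deletions of 1 base only and 0 with the truncated copies, where bases 760 and 761 gave -0.24 and -0.29. The number higher, 0, became 2 by Fisher's test, which over all 139 sense rDNA bases called 28.1% lower and 15.1% higher. With a replicate block it became 1, base 1382, and no other call among the 18S bins and bases changed. Beyond 18S the block moved the calls from 0 higher and 2 lower to 7 and 5 of 139 bases, and from 11 and 7 to 5 and 1 of 535 windows. The share of cDNAs with a deletion, Mkt1-HTP minus control, ran from -14.5 (without control replicate 1) to 12.0 (without control replicate 2) percentage points, and was 4.07 without Mkt1-HTP replicate 1. The median length, 0.5 nt longer in Mkt1-HTP, ran from -2 to 3 nt on leaving out 1 library, with -0.5 without Mkt1-HTP replicate 1, and was -1.75 with repeated cDNAs counted once, -1.5 without shared control cDNAs and -1 with the truncated copies. Counting each pair of ends once was not run for deletions, which it ignores.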
